A study of Rattus norvegicus with 5 samples.

Results

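The comparison described here set BRL-3A rat liver cells that received a Tmub1 overexpression lentivirus against the same cells given that virus's negative control. BRL-3A is an established line that the labels call normal rat hepatocytes. Each side was 1 one-colour Agilent array, so the 2 arrays hold no biological replicate and no p-value, SD or n is given for any difference. The members were all probes for rat transcripts that the scanner software called well above background on at least 1 of the 2 arrays: 22263 of the 30367 probes on the array. Of these, 20102 were well above background on both arrays, 1907 on the overexpression array alone and 254 on the negative control array alone. The spots of 100 of these probes were marked as poor on either array, which left 22163 to compare. The probes that could be named covered 11907 of the 15168 genes on the array.

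The series holds 3 further groups of the same line, with 1 array each: a Tmub1 knockdown lentivirus, its own negative control, and normal cells given no virus. Below, the negative control of the overexpression virus is called the own control and that of the knockdown virus the knockdown control. Transduced cells were harvested at 48 h, no such time is given for normal cells, and 1 µg of RNA per sample went into labelling. The sources used here do not state what the control viruses carry, which promoter drives Tmub1, the virus dose or any selection of transduced cells. The 4 arrays of transduced cells were scanned on 1 day and the array of normal cells on another, so every comparison with normal cells carries that difference as well.

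TMUB1 spans the membrane, carries a domain like ubiquitin and is found at the endoplasmic reticulum, where it takes part in the removal of membrane proteins for degradation, and it has been studied as a regulator of hepatocyte division in the regenerating liver. The interferon response, which many of the genes below belong to, begins when sensors such as RIG-I, MDA5 and Toll-like receptors meet foreign RNA or DNA. They switch on the transcription factors IRF3 and IRF7, which induce type I interferon. Secreted interferon then acts through JAK kinases on a complex of transcription factors, which binds the interferon-stimulated response element in the promoters of antiviral genes.

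Levels are given as the log2 of the processed signal minus the array's own 75th percentile, so that 0 is the 75th percentile. A level belongs to its probe, and levels of different genes are not compared. A difference of at least 2.5-fold, the fold that the series' design text names, with the brighter value well above background, is called higher or lower here. Probes well above background made up 72.5% of all probes on the overexpression array, 67.0% on the own control array and 73.2% on the knockdown control array. No spot was saturated, and the spots of probes printed more than once had a median SD of 0.075 log2 on the overexpression array and 0.082 on the own control array.

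Tmub1 itself, the gene the virus carries, was not measured higher. Its probe read 0.40 with the overexpression virus, 0.35 in its negative control, 0.38 in the knockdown control, 0.08 in normal cells and -1.42 with the knockdown virus. The overexpression array and both negative controls were thus level, and only the knockdown array was clearly lower. The overexpression difference of 0.05 was smaller than the scanner software's error of 0.20, and over the 6 ways of scaling the arrays it ranged from 0.05 to 0.14. Whether the single probe can read the transcript made by the virus was not tested. A gain of Tmub1 RNA was therefore not measured, and directions below refer to the array labelled as overexpression.

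Named probes fell on 11859 genes that could be compared. Of these, 204 were higher and 123 lower with the overexpression virus (1.72% and 1.04%), 327 in all or 2.76%, and 86 of the 327 are known only as a lower bound because the dimmer side was below background. The 2 negative controls, measured the same way, differed in 1019 of 11941 genes (8.53%), with 3.79% higher and 4.75% lower in the own control. The overexpression array differed from the knockdown control in 493 of 12122 genes (4.07%), with 2.09% higher and 1.98% lower. The 3 comparisons share arrays and are not independent. Higher genes made up 62.4% of the calls, against 51.6% in the authors' own processed values, where 146 genes were higher and 137 lower. Among genes well above background on both arrays of a pair, 82.4% lay within 1.5-fold between overexpression and its negative control and 61.3% between the 2 negative controls, with an SD of the log2 differences over genes of 0.49 and 0.76.

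**Figure D1:**
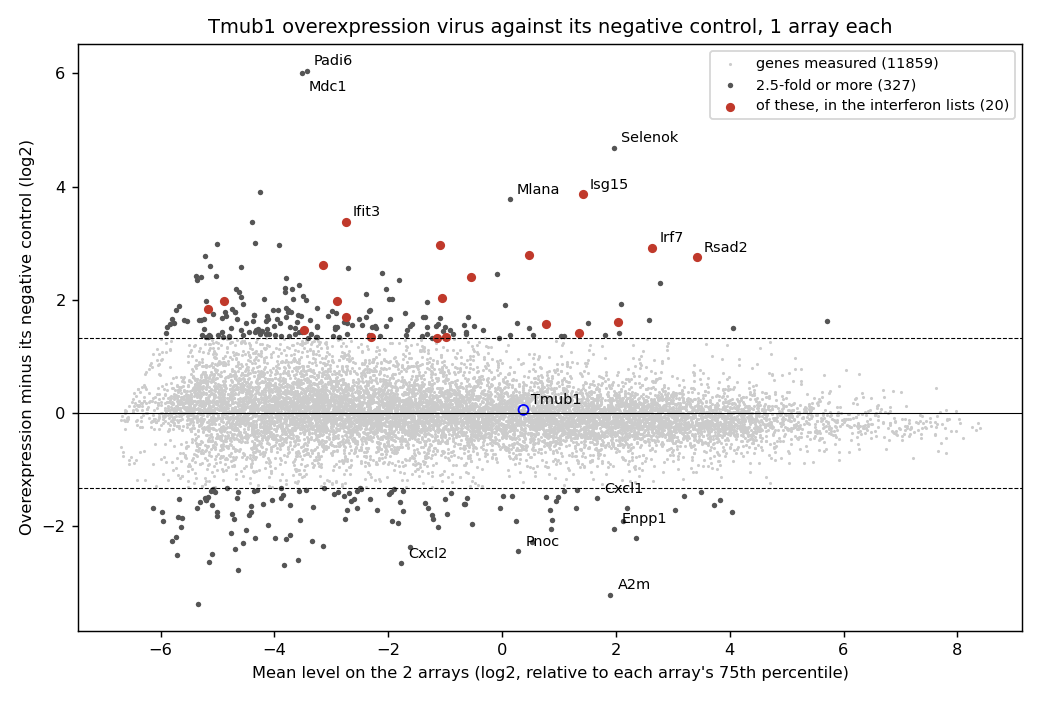
Log2 difference between the overexpression array and its negative control array for 11859 genes (vertical axis) against the mean level on the 2 arrays (horizontal axis, log2 relative to the 75th percentile). Grey points are genes measured, dark points the 327 past 2.5-fold (dashed lines), red points the 20 of these in the interferon lists, and the open circle is Tmub1 at 0.05; the interferon genes lie on the higher side at dim and bright levels alike.

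Genes that interferon induces were the group with most calls. Of 98 measured genes in the 7 interferon lists, 20 were higher (20.4%, where 1.72% of all genes were called higher) and 0 lower, 79 lay above 0, and the median difference was 0.63 log2 against -0.02 over all genes. The lists were drawn up with earlier results of these data known, so the count is a description. Against the knockdown control, 5 of 99 were higher and 1 lower, and the median was 0.22 against 0.03 over all genes. Between the 2 negative controls the median of these genes was -0.48, the own control being the lower one. Of the 20 higher genes, 13 lay above the knockdown control and 20 above normal cells, and in 19 the own control also lay above normal cells. After normexp background correction 11 of the 20 still passed 2.5-fold, and these 11 passed under all 6 scalings.

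The letters of the element that the interferon complex recognises were looked for in RefSeq's promoters. The 250 bases before the transcription start were searched for GAAA, any 2 bases and GAAA again, on both strands, with overlapping matches counted. The letters were present in 992 of 27457 genes with a promoter in RefSeq's table for the GRCr8 build (3.61%), in 298 of 9694 measured genes (3.07%) and in 18 of the 171 higher genes that matched the table (10.5%). Among the 157 matched higher genes that are in none of the interferon lists it was 7 (4.46%), namely Apol9a, Cxcl10, Ifgga2l1, Lgals5, Mapk10, Plin5 and Selenok. Of the 20 interferon-list genes 14 matched the table, and of the 123 lower genes 96 did, too small a part of each list for a share, and 2 of those 96 held the letters. The 11 of those 14 that hold the letters were Ifi44, Ifi44l, Ifit3, Irf7, Lgals9, Oas1a, Oas1i, Oasl2, RT1-S3, Rsad2 and Tap1. A match is a run of letters and not a measured binding site.

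The sequences of 7 such promoters, from genes called higher, are shown as examples, with Apol9a added for its order over the arrays. They run 5′ to 3′ on the gene's own strand, with the matching letters in capitals, at chr1:241527257-241527316 (plus strand) for Ifit3, chr6:48788233-48788292 (minus) for Rsad2, chr1:205800058-205800117 (minus) for Irf7, chr12:41330406-41330465 (plus) for Oas1a, chr12:47383302-47383361 (minus) for Oasl2, chr14:15988816-15988857 (plus) for Cxcl10 and chr7:111028251-111028310 (minus) for Apol9a, in GRCr8. All lie in the region before the gene's start.
Ifit3: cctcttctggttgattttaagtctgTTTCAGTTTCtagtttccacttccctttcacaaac
Rsad2: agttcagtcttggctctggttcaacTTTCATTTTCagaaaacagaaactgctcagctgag
Irf7: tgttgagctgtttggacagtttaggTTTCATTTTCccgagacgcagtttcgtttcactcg
Oas1a: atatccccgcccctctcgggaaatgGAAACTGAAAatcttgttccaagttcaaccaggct
Oasl2: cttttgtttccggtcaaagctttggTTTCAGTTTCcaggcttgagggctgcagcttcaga
Cxcl10: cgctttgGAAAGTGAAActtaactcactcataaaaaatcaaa
Apol9a: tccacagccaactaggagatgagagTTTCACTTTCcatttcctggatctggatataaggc
The capitals began 44 bases before the start in Ifit3, 147 in Rsad2, 69 in Irf7, 35 in Oas1a, 151 in Oasl2, 243 in Cxcl10 and 72 in Apol9a. In Oas1a a second match, GAAATGGAAA, began at base 41 and overlaps the one shown. In Apol9a a second match, TTTCCATTTC, began at base 66, overlaps the first and stands in lower case in its line apart from the shared letters.

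Among the sensors of viral nucleic acid, 1 of 10 measured genes was higher and 0 lower, with a median of 0.27. Over all genes 1.72% were higher, and 10 genes are too few to set against that share. Dhx58, which encodes the RIG-I-like protein LGP2, read -0.31 with overexpression, -1.65 in its negative control and -0.29 in the knockdown control, a 2.54-fold difference from its own control. Ifih1, which encodes MDA5, had the same arrangement at -2.60, -3.87 and -2.61, a difference of 1.27 that fell short of the threshold. On these 3 arrays both genes were thus lowest in the own control and alike on the other 2. Dhx58 read -2.26 in normal cells and -1.62 with knockdown, so the own control was not its lowest array. The Toll-like receptor gene Tlr3 was the reverse: it differed by 0.30 from its own control and by 1.63 from the other. The adaptor genes Mavs, Sting1 and Myd88 differed from the own control by -0.34, 0.24 and 0.05.

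No ligand, receptor or kinase of the pathway was called, among 8 measured. The interferon-beta gene Ifnb1 was dim, at -5.41 with overexpression and not well above background in either negative control, and the interferon-alpha gene Ifna4 read -3.78 with overexpression and -3.05 in its control. The receptor genes Ifngr1 and Ifngr2 and the kinase genes Jak1 and Jak2 differed by -0.06, -0.19, -0.16 and -0.35. Neither ligand gene was thus called higher at 48 h.

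Irf7, the transcription factor that amplifies interferon induction, was the 1 called gene of 9 measured transcription factors, where 2.76% of all genes were called. It read 4.10 with overexpression, 1.18 in its negative control, 3.29 in the knockdown control, -0.63 in normal cells and 0.72 with knockdown, and was 7.56-fold above its own control. Stat2 and Irf9, both of the complex that interferon activates, lay above 0 at 0.61 and 0.56 without reaching the threshold. From the knockdown control their differences were 0.93 and 0.09. Irf3, which is activated by phosphorylation rather than induced, stood at -0.19. The list median was 0.56 against the own control and 0.60 against the knockdown control, where 0 genes were higher, Irf2 was lower and Irf7 was not called (0.81).

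Antiviral effectors gave 9 higher and 0 lower genes of 42 measured, with 37 above 0 and a median of 0.81. Rsad2, which encodes viperin, an enzyme that makes a chain terminator of viral RNA synthesis, read 4.80 with overexpression, 2.05 in its negative control, 3.29 in the knockdown control, -2.77 in normal cells and -0.35 with knockdown. Cmpk2, the nucleotide kinase encoded beside Rsad2 that supplies its substrate, read -0.04, -2.07, -0.95, -4.26 and -2.30 in the same order. Rtp4, an interferon-induced chaperone of receptors, read 1.87, -0.92, 0.13, -4.46 and -2.78. In all 3 genes the overexpression array was the highest of the 5 and the own negative control the third.

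Ifit3, a member of a family that binds viral RNA, read -1.06 with overexpression, -4.44 in its negative control and -2.65 in the knockdown control, and was not well above background in normal cells. It was 10.4-fold higher than its own control and differed by 1.59 log2 from the other. Ifit2 of the same family read -1.89, -3.59 and -3.10, a 3.24-fold difference, and Ifit1 was below background on all 5 arrays. The remaining called effectors were Ifi44 at 3.06-fold, Ifi44l at 2.75-fold, Phf11 at 2.67-fold and Lgals9 at 2.52-fold. Of these 4, Ifi44 differed by 0.60 from the knockdown control, Ifi44l by 0.14, Phf11 by 0.28 and Lgals9 by -0.46. Mx1 and Mx2, which encode dynamin-like antiviral GTPases, stayed under the threshold at 1.03 and 0.97.

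The 2′-5′ oligoadenylate synthetases make a short nucleotide messenger in answer to double-stranded RNA, and 5 of 8 measured genes of this list were higher, with a median of 1.91. Oasl2 read 0.39 with overexpression, -2.57 in its negative control, -0.19 in the knockdown control, -2.92 in normal cells and -2.26 with knockdown. Oas1k read -1.83, -4.45, -1.41, -5.78 and -3.93, and Oas1a read -1.92, -3.90, -1.70, -4.29 and -4.26. Oas1i and Oasl were below background on the own control array and at least 3.93-fold and 3.57-fold higher. With the knockdown control as reference 0 of the 8 genes were called and the median was 0.09, with -0.42 for Oas1k, -0.22 for Oas1a, -0.80 for Oas1i, 0.72 for Oasl and 0.58 for Oasl2. These paralogs have closely related sequences, and how far their probes are specific to each was not tested.

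In the ISG15 conjugation system 2 of 4 measured genes were higher and 0 lower, with a median of 1.60. Isg15 itself, the ubiquitin-like modifier, had the largest fold among called interferon-list genes. It read 3.35 with overexpression, -0.51 in its negative control, 1.93 in the knockdown control, -4.39 in normal cells and -1.64 with knockdown, and was 14.5-fold above its own control. Usp18, the protease that removes ISG15 from proteins, read 0.66, -1.75, 0.41, -4.64 and -1.90, and its second probe gave a difference of 2.06 beside 2.41 on the first. The conjugating enzyme gene Ube2l6 differed by 0.79. Herc3, a ligase gene of the HERC family that the list counts, differed by -0.40, and whether it takes part in ISG15 conjugation was not tested. From the knockdown control Isg15 differed by 1.42, Usp18 by 0.25 and Ube2l6 by 0.38.

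Genes of antigen presentation by MHC class I gave 2 higher and 0 lower genes of 17 measured, with 15 above 0 and a median of 0.67. Over all genes 1.72% were higher. The class I gene RT1-S3 read 1.56 with overexpression, -0.02 in its negative control and 1.57 in the knockdown control, and the peptide transporter gene Tap1 read -1.64, -2.98 and -0.83. The further class I genes RT1-A1, RT1-A2 and RT1-N3 differed by 1.25, 1.17 and 1.17 from the own control and by 0.26, -0.12 and -0.21 from the other. B2m, the shared light chain, differed by 0.48 and 0.49. With the knockdown control as reference 0 genes of the list were called and the median was -0.01.

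**Figure D2:**
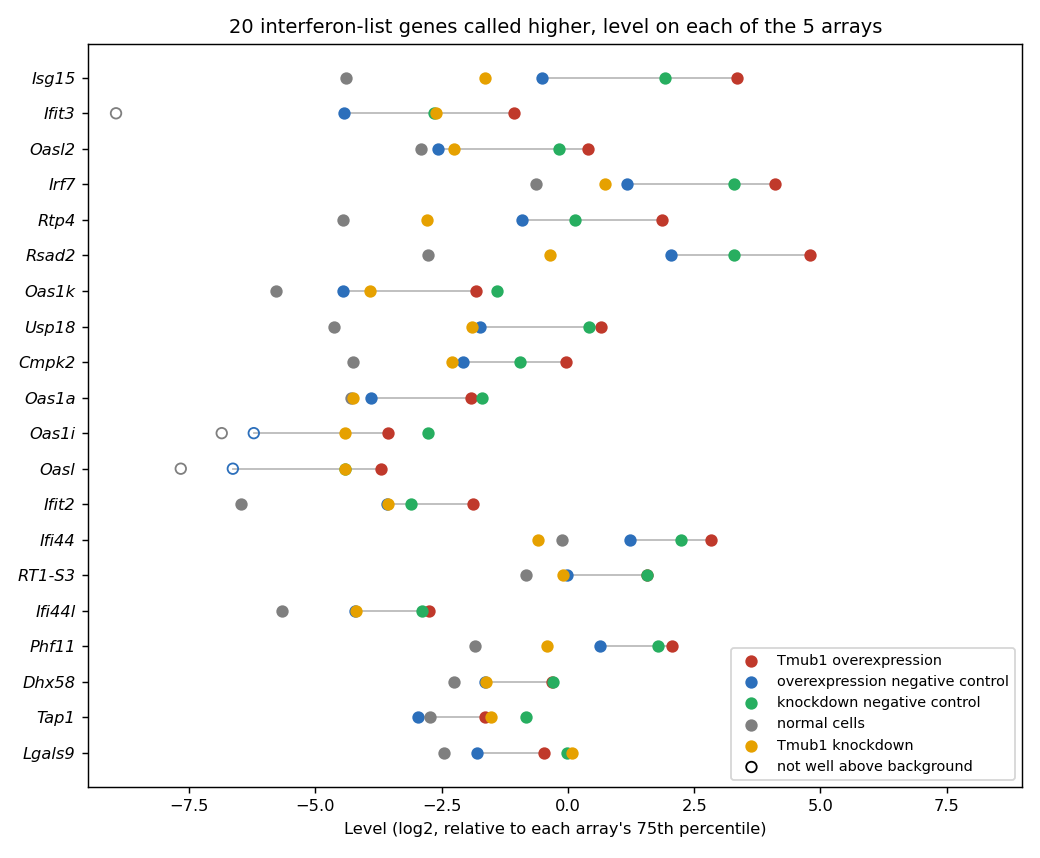
Level of the 20 called interferon-list genes on each of the 5 arrays (horizontal axis, log2 relative to each array's 75th percentile), ordered by the difference between overexpression (red) and its negative control (blue), with open circles for values not well above background. The knockdown control (green) lies between the 2 for Isg15, Rsad2, Irf7 and Rtp4 and at or above the overexpression value for the Oas1 genes, Tap1 and Lgals9.

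Several of these genes shared 1 order of the arrays. Among 143 higher genes well above background on all 5 arrays, the 3 most common orders held 20, 19 and 17 genes, each with knockdown highest and the own control lowest. The fourth most common held 12, which ran from overexpression through the knockdown control, the own negative control and knockdown down to normal cells (8.39%), against 72 of 10701 genes with the same quality (0.673%). The call itself puts overexpression above its own control, so the 2 shares do not have the same freedom. The 12 were Apol9a, Car8, Cmpk2, Cxcl10, Etv5, Irf7, Isg15, Mlana, Phf11, Rsad2, Rtp4 and Usp18, an order chosen after the values were seen. Apol9a belongs to a family of apolipoprotein L genes that interferon induces, whereas Car8, Etv5 and Mlana are not usually counted as interferon targets. In Mlana, the melanosome protein, the levels were 2.02, -1.75, 0.58, -5.12 and -2.40, and in Etv5, a transcription factor that follows ERK signalling, 4.81, 3.30, 3.97, -0.71 and 2.21. The second, dimmer Etv5 probe did not share this order: it differed by 0.77 from the own control and by -2.22 from the knockdown control. That probe was not well above background on both the overexpression and the own control array.

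Chemokines, which attract leukocytes, went both ways: 1 gene was higher and 4 lower of 25 measured, with a median of -0.30. Over all genes 1.72% were higher and 1.04% lower. Cxcl10, which interferon induces and which attracts T cells, read 3.93 with overexpression, 1.63 in its negative control, 2.65 in the knockdown control, -2.40 in normal cells and 0.85 with knockdown. Ccl5, likewise induced by interferon, differed by 1.24 and was not called. The neutrophil chemokine gene Cxcl1 was lower, at 0.91 with overexpression and 2.41, 2.43 and 2.53 on the 3 control arrays, so it stood apart from all of them. Cxcl2 read -3.10, -0.44, -2.29 and -3.30 on the same 4 arrays and Ccl20 read -2.88, -0.97, -2.19 and -0.23. The level of Cxcl2 in normal cells thus lay below that with overexpression. The remaining lower gene, Ccl3, read -5.05 with overexpression, -3.67 in its negative control and -4.98 in the knockdown control. It was not well above background in normal cells. After normexp correction Cxcl2 and Ccl20 were still called lower, and Cxcl1 and Ccl3 were not. Against the knockdown control the median of the list was 0.04.

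Genes of mitosis lay below 0 without any call. Of 29 measured mitotic kinases, kinesins and checkpoint genes, 0 were higher or lower, 3 lay above 0 and the median was -0.66. The motor gene Kif18a differed by -1.20, the cyclin gene Ccnb1 by -1.17, the ubiquitin-conjugating enzyme gene Ube2c by -1.12 and the separase gene Espl1 by -1.07. Ccnb1 read 0.53 with overexpression, 1.70 in its negative control, 0.48 in the knockdown control, 2.05 in normal cells and 2.14 with knockdown. Against the knockdown control the list median was 0.08 with 16 of 30 above 0, and between the 2 negative controls 6 of 30 genes were higher and 1 lower in the own control, where 8.53% of all genes were called. The median between overexpression and its own control was -0.54 to -0.66 over the 6 scalings. Cyclins, CDKs and their inhibitors gave 0 calls of 27 and a median of -0.31 and -0.30 against the 2 negative controls. DNA replication genes gave 1 higher gene of 36, Rrm1, the large subunit of ribonucleotide reductase. This is 2.78%, near the 2.76% called over all genes against the own control. The medians of the replication genes were -0.11 and -0.09 against the 2 negative controls.

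Partners of TMUB1 in the degradation of endoplasmic reticulum proteins gave 1 higher and 0 lower gene of 26, or 3.85%. This is near the 2.76% called over all genes. The list median of -0.06 changed sign with the scaling, from -0.06 to 0.02. The called gene was Get3, which encodes the ATPase that delivers tail-anchored proteins to the membrane. It read -0.93 with overexpression, -2.40 in its negative control, -0.35 in the knockdown control, -1.03 in normal cells and -0.21 with knockdown, so the own control was the lowest array. The ERAD lectin gene Os9 differed by 1.06 and the lipid droplet and ERAD gene Aup1 by 0.94, with -2.24, -3.30 and -2.32 for Os9 on the first 3 arrays. Tmub2, the paralog of Tmub1, differed by -0.02, the AAA ATPase gene Vcp by 0.56, the ubiquitin ligase gene Syvn1 by 0.19 and its cofactor gene Sel1l by -0.18.

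The lists of stress and growth held 0 to 3 calls each, where 2.76% of all genes were called. Endoplasmic reticulum chaperones gave 2 higher genes of 28, Selenok and Pdia4, with medians of 0.10 and -0.36 against the 2 negative controls. Of 29 ATF4 target genes 1 was lower, the secreted hormone gene Fgf21, which read -2.13 with overexpression, -0.12 in its negative control and -0.45 in the other. Of 33 immediate early and ERK feedback genes, Phlda1 and Etv5 were higher and Mycn lower, and the median changed from 0.18 to -0.48 with the reference. Potassium channel genes gave 1 lower gene of 16: Abcc8, the sulphonylurea receptor of the KATP channel, read -5.24 with overexpression and -3.60, -3.90 and -2.78 on the 3 control arrays. Its partner gene Kcnj11, the pore of the same channel, read -3.79 and -2.84, -2.68 and -2.56 and was not called. Both genes were thus lowest with overexpression among these 4 arrays. Abcc8 lay near the lowest well-measured signal of the overexpression array at -5.89, and after normexp correction it was not called. Of the 16 channel genes 3 lay above 0 against the own control, so a lower value was common in this list. Proteasome subunits, NRF2 targets, heat shock proteins, apoptosis regulators, ribosomal proteins and respiratory chain genes gave 0 calls of 30, 26, 23, 28, 48 and 34 measured genes.

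**Figure D3:**
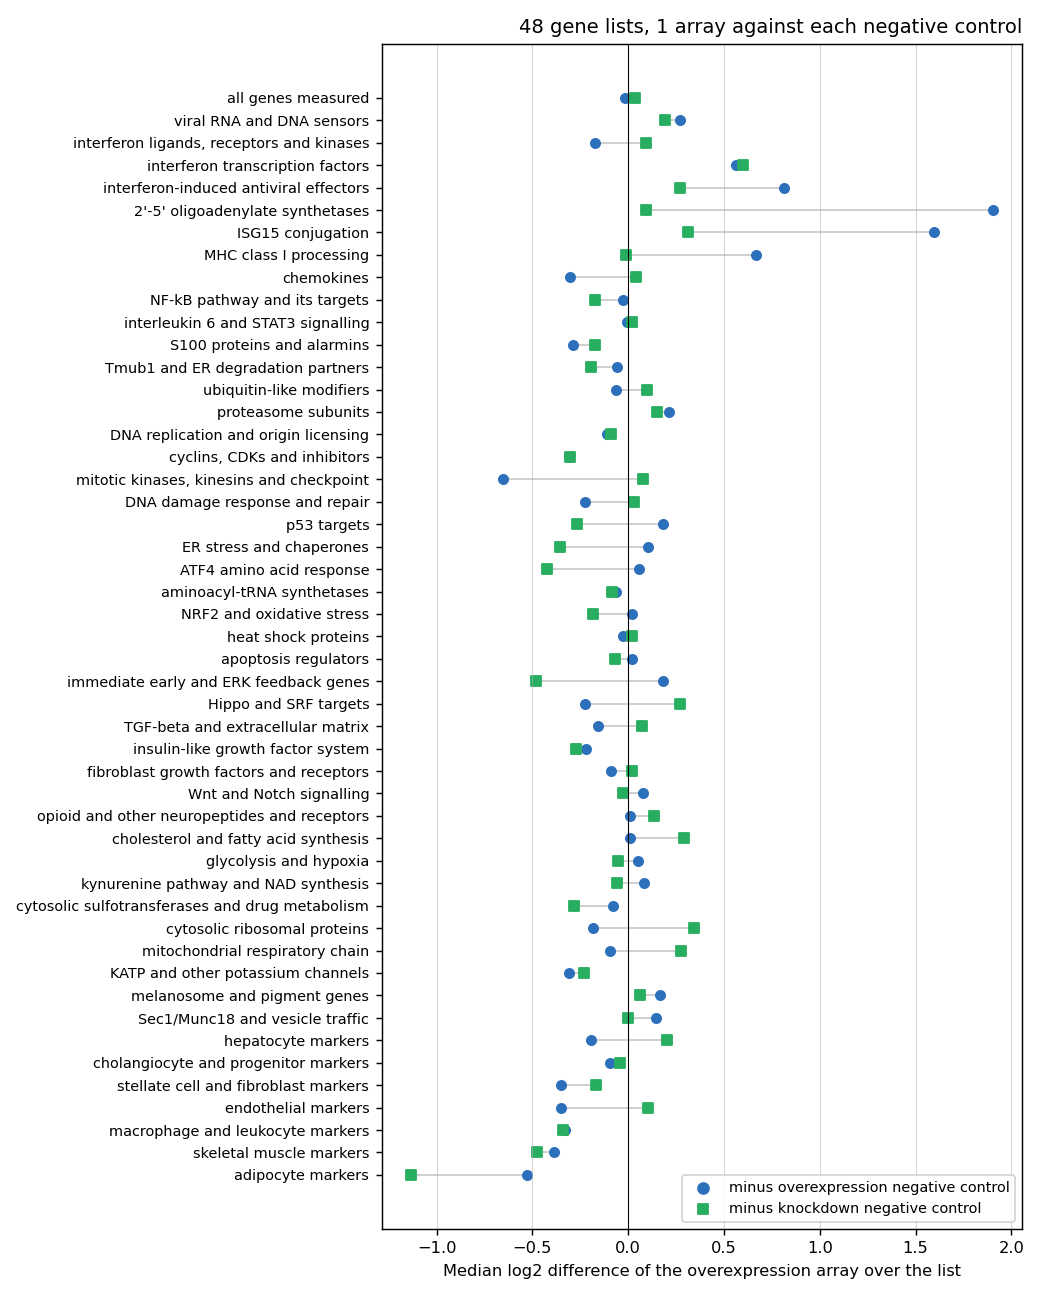
Median log2 difference of the overexpression array over each of 48 gene lists (horizontal axis), against its own negative control (blue circles) and against the knockdown control (green squares); all genes measured stand at -0.02 and 0.03. The oligoadenylate synthetases moved from 1.91 to 0.09 with the reference and the mitotic list from -0.66 to 0.08, while the interferon transcription factors stood at 0.56 and 0.60.

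The 204 higher genes were also read against the knockdown control, which shares the overexpression array. There 41 passed 2.5-fold again, 16 were 1.5- to 2.5-fold higher, 110 lay within 1.5-fold and 37 were at least 1.5-fold lower. Of the 123 lower genes 16 passed again, 19 were 1.5- to 2.5-fold lower, 45 lay within 1.5-fold, 22 were at least 1.5-fold higher and 21 could not be read. Among the 143 higher genes well above background on all 5 arrays, the own negative control was the lowest array for 103 and the overexpression array the highest for 31. For 132 of the 204 higher genes and 50 of 122 lower genes readable on these arrays the own negative control lay outside the other 3 arrays compared (overexpression and the 2 remaining controls) by 1.5-fold or more.

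The overexpression array lay at least 1.5-fold outside the range of all 3 control arrays for 49 of the 204 higher and 29 of the 122 readable lower genes. Of these, 21 higher and 19 lower genes were well above background on all 5 arrays and had a symbol that is not a placeholder. Scfd2, a gene of the Sec1/Munc18 family that acts in vesicle fusion, read -0.87 with overexpression, -3.35 in its negative control, -3.49 in the knockdown control, -2.99 in normal cells and -3.15 with knockdown. Haao, an enzyme of the kynurenine pathway towards NAD, read -2.44, -4.71, -4.98, -3.66 and -5.14. Krt6c, an epithelial keratin gene, read -1.14, -2.80, -4.17, -4.80 and -4.72. Its other probes gave raw differences of 1.36 and 1.18, but neither was well above background on both arrays and neither was called. In all 3 genes the overexpression array was the highest of the 5, and for Scfd2 the other 4 lay close together. After normexp correction Scfd2 was still called, and Haao and Krt6c were not.

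The remaining higher genes of this kind outside the interferon and chemokine lists included Sult1c2, a sulfotransferase gene, at 3.55-fold, Cir1 at 3.43-fold and Bpifb3 at 3.02-fold, none of them called after normexp correction. Their lists held 1 call each, Haao of 12 measured kynurenine and NAD genes, Sult1c2 of 21 sulfotransferase and drug metabolism genes and Scfd2 of 28 vesicle traffic genes, counts too small to set against the 2.76% of all genes. Among 11 measured melanosome genes Mlana was higher and Slc45a2, a melanosome transporter gene, lower, at -4.81 with overexpression and -2.65, -4.10 and -1.70 on the 3 control arrays.

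On the lower side, Pnoc, which encodes the precursor of the neuropeptide nociceptin, read -0.94 with overexpression and 1.503, 1.13 and 0.28 on the 3 control arrays. The difference was 5.43-fold, with a scanner error of 0.20 log2. With knockdown Pnoc read -3.21, lower still. S100a9, a calcium-binding protein of neutrophils and macrophages, read -5.44 and -3.24, -2.89 and -4.74, with a larger scanner error of 0.34, while its partner S100a8 read -5.18 with overexpression and was not well above background in the own control, so the pair could not be compared there. Sez6l2, Spmap2, Neto1, Hyal3 and Evx1 were 3.22-, 3.08-, 2.82-, 2.69- and 2.62-fold lower. Their differences from the knockdown control were -1.57, -1.84, -1.43, -1.28 and -1.30. Evx1 and Neto1 read -5.73 and -5.41 with overexpression, near the lowest well-measured signal of that array at -5.89. Mycn, a MYC family gene, read 0.46 and 2.14, 1.24 and 2.62, and Myocd, a coactivator of smooth muscle genes, read -4.15 and -2.48, -3.20 and -2.07. After normexp correction Pnoc and Mycn were still called, and S100a9, Sez6l2, Spmap2, Neto1, Hyal3, Evx1 and Myocd were not.

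In other calls it was the own control array that stood apart. Selenok, a selenoprotein gene of the endoplasmic reticulum, read 4.30 with overexpression, -0.38 in its negative control, 4.21 in the knockdown control, 3.56 in normal cells and 3.19 with knockdown. It was 25.7-fold higher by its own control and differed by 0.09 from the other. Notum, which encodes a secreted inhibitor of Wnt proteins and is itself induced by Wnt signalling, read 1.14, -1.32, 1.53, -0.52 and -1.26. Axin2, the classic feedback target of Wnt signalling, read -0.65, -2.99, 0.85, -0.85 and -0.40, so the own control was the lowest array in both genes, close to knockdown for Notum. The receptor gene Fzd2 and the transcription factor gene Lef1 of that pathway had differences of 1.25 and 1.23, under the threshold. From the knockdown control Axin2, Fzd2 and Lef1 differed by -1.498, -1.01 and -0.66, and the median of the 25 measured Wnt and Notch genes was 0.08 and changed sign with the scaling.

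Pdia4, Net1, Sirt7, Lrrk1 and Ebf2 also had the own control as the lowest array, with differences of 2.39, 2.20, 2.20, 2.14 and 2.11 from it and of -0.37, -0.39, -0.45, -0.30 and -0.01 from the knockdown control. Several genes called lower were near the knockdown control and below the own control. A2m, a protease inhibitor of the acute phase, read 0.30 with overexpression, 3.51 in its negative control, 0.77 in the knockdown control, 3.89 in normal cells and -1.02 with knockdown, and its second probe gave -3.35 beside -3.21. Normal cells were thus above the own control for A2m. Bmper, a modulator of bone morphogenetic proteins, read -0.62, 1.66, -0.82, 0.58 and -1.08, and Ttc36 read -2.80, -0.43, -3.19, -3.22 and -3.95. For Abca5, Enthd1, Ddc, Pdxdc1 and Bves the differences were -2.68, -2.59, -1.97, -1.98 and -2.06 from the own control and -0.24, 0.08, 0.02, -0.28 and -0.44 from the other. Ddc read 0.45 in the own control and 0.77 in normal cells, so the own control was not its highest array. The second Pdxdc1 probe gave a raw difference of 0.95, the opposite sign, but was not well above background on both arrays.

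**Figure D4:**
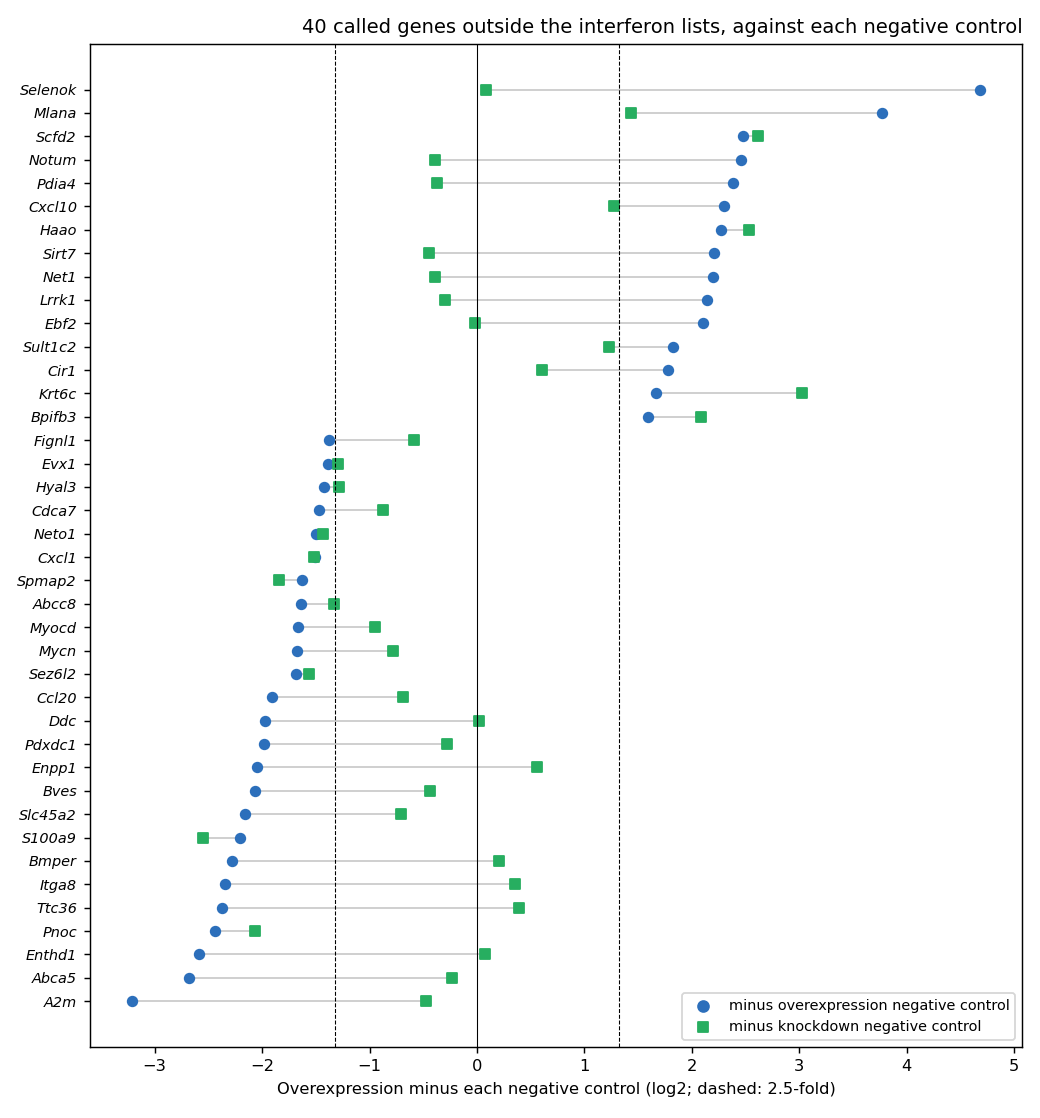
Log2 difference of the overexpression array from its own negative control (blue circles) and from the knockdown control (green squares) for 40 called genes outside the interferon lists, 15 higher and 25 lower; dashed lines mark 2.5-fold. Scfd2, Haao, Pnoc, S100a9 and Cxcl1 lie past the lines on both, and Selenok, A2m, Enthd1 and Notum past them for the own control alone.

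Some calls are known only by a bound. Padi6, a peptidylarginine deiminase gene of the oocyte, read 0.51 with overexpression and was not well above background on any of the other 4 arrays, at least 66.1-fold above its control. Myrip, which links melanosomes and secretory granules to myosin, read -2.17 and was also below background on the other 4, at least 10.3-fold. The hepatocyte receptor gene Asgr1 read -3.40, below background in both negative controls and at -5.71 in normal cells, at least 4.40-fold. These 3 genes were high on the overexpression array alone. Mdc1, at least 63.9-fold higher, and Mllt3, at least 3.91 log2 higher, were instead below background on the own control array alone, and they differed by -0.22 and -0.39 from the knockdown control. Lower bounds on the other side were 6.87-fold for Ttc9b, 6.17-fold for Fgf20 and 5.67-fold for Lhx1. All 3 were below background in the knockdown control as well, and Lhx1 was well above background on the own control array alone.

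Probes printed on 10 spots gave repeated readings on each array. Of 1254 such members 6 were higher and 9 lower (1.20%, against 3.05% of all 22163 probes tested). Their median difference in size was 0.24 log2 and the median standard error over spots 0.04. In all 15 called probes the spots of the 2 arrays did not overlap. These probes were picked by a difference of at least 1.32 log2 between the same 2 arrays. The median SD over spots was 0.07 and 0.08, so this separation was close to fixed in advance and adds no support. The 10 spots of Rtp4 read 1.79 to 1.94 with a median of 1.87 on the overexpression array and -1.01 to -0.81 with a median of -0.93 on its control array. The spots of Cmpk2 read -0.21 to 0.05 and -2.20 to -1.92. Enpp1, an enzyme that makes pyrophosphate and degrades the messenger cGAMP, read 0.88 to 1.02 and 2.96 to 3.07, and Itga8, an integrin subunit gene, -4.63 to -4.06 and -2.13 to -1.83. The spread over spots covers printing and scanning, not cells or RNA.

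Edn1, the endothelin precursor, read -2.72 to -2.43 over spots with overexpression and -1.22 to -0.73 in its control, while its medians on the remaining arrays ran from -2.98 in the knockdown control to 2.32 with knockdown. Akt1, a kinase gene of insulin signalling, read -0.72 to -0.45 and -2.48 to -1.995, and its difference from the knockdown control was -0.36. The histone mRNA binding protein gene Slbp read -0.66 to 0.04 and -1.68 to -1.43, with -1.55 against the knockdown control. Podxl, a sialomucin gene, read 2.996 to 3.10 and 4.43 to 4.65, and differed by -1.54 from the own control and 1.59 from the knockdown control, so its sign turned with the reference. The Itgb1 probe with 10 spots differed by 1.47, whereas the brighter Itgb1 probe, with 1 spot, differed by -0.83, so this gene has no single direction here. Past 2.5-fold against the knockdown control as well were Rtp4, Fgf21 and Cxcl1, whose differences from it were 1.73, -1.68 and -1.52.

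**Figure D5:**
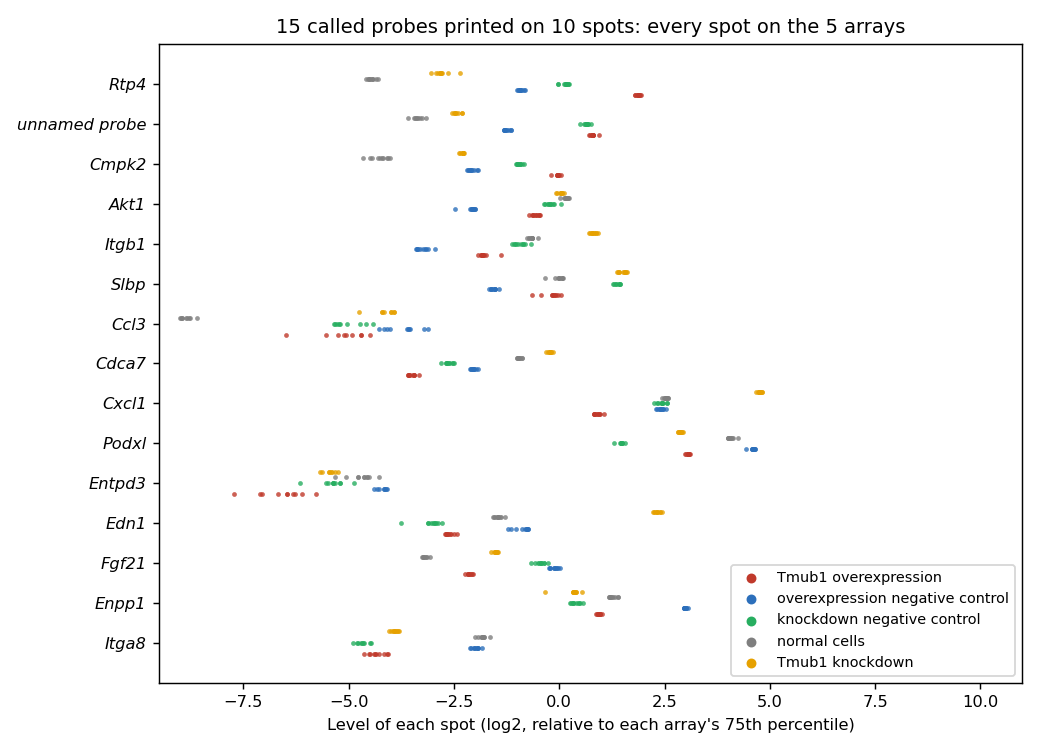
Level of every spot (horizontal axis, log2 relative to each array's 75th percentile) for the 15 called probes printed on 10 spots, on all 5 arrays; spots marked as poor are left out. The red (overexpression) and blue (own negative control) spots of each probe are separate, as the choice of called probes made likely. The green spots of the knockdown control lie on the far side of the red ones for Slbp, Itgb1 and Akt1 among higher probes. Among lower probes they do so for Podxl, Enpp1 and Edn1.

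Different probes of 1 gene give a second measure of technical spread. Of 1524 genes with at least 2 probes well above background on both arrays, the probes differed in their log2 difference by a median of 0.31, with a 90th percentile of 0.95. Of 28 called genes with at least 2 probes tested, 10 were called on every probe and 0 had calls in opposite directions. The 3 higher ones were Usp18, Tph1 and Plaur, and the 7 lower ones A2m, Bmper, Ccl20, Cd55, Lrp2, Fam25a and Actg2. Cd55, a complement regulator, differed by -1.71 and -2.22 on its 2 probes, and Lrp2, an endocytic receptor gene, by -1.52 and -1.64. Phf11 had 3 probes, at 1.42, 1.57 and 1.37, the last a raw difference of a probe not well above background on both arrays and not called.

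Calls grew rarer with level. In 5 bins of equal size from the dimmest to the brightest genes, 5.19%, 3.88%, 2.49%, 1.56% and 0.675% were called, and between the 2 negative controls 11.5% to 5.27% over the same bins. The median difference fell from 0.10 in the dimmest bin to -0.12 in the brightest. Calls were 78 higher and 45 lower in the dimmest bin and 7 higher and 9 lower in the brightest. The excess of higher genes thus lay in the dimmer bins. Named and unnamed probes were called equally often, at 3.04% of 13794 and 3.05% of 8369. Just inside the threshold lay Cachd1 at 2.50-fold higher and Slc28a1 and Ptprq at 2.51-fold lower, and just outside it Ube2s and C7h19orf25 at 2.49-fold higher and Dmd at 2.49-fold lower. A further 402 genes differed by 2- to 2.5-fold.

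Hepatocyte markers were partly missing, and transcripts of other tissues were present. Of 28 hepatocyte markers, 15 were well above background on each of the 2 arrays, and Cps1, Cyp7a1, F2, F9 and Tat were below background on all 5. Albumin (Alb) read -4.73 with overexpression and was not well above background in its control. Of the 17 hepatocyte markers compared, Asgr1 was higher by at least 4.40-fold and Afp lower by at least 2.97-fold, both known only by a bound. The median difference of these markers was -0.19, and over all genes 2.76% were called. Skeletal muscle genes were present on the arrays of transduced cells: Ckm, the muscle creatine kinase, read 2.97 with overexpression, 3.11 in its control, 2.85 with knockdown and -5.92 in normal cells. The fat cell gene Cfd read 2.57 and 3.23 and was not well above background in normal cells. The myeloid gene Lyz2 read 1.71 and 2.17 with the same absence. Most markers of these lists were nevertheless well above background in normal cells. There it was 15 of 17 muscle, 6 of 10 fat and 14 of 20 macrophage and leukocyte markers. With overexpression it was 17, 9 and 15. In bulk RNA fewer cells of a type and less RNA per cell cannot be told apart.

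Among the marker lists of other cell types, 1 of 7 cholangiocyte and progenitor genes was lower, Dlk1 at 3.67-fold, and the other 5 lists had 0 calls. Over all genes 2.76% were called, and 7 genes are too few to set against that share. The median difference was -0.39 over 17 muscle markers, -0.53 over 9 fat markers, -0.33 over 14 macrophage and leukocyte markers, -0.35 over 11 endothelial markers and -0.35 over 18 stellate cell and fibroblast markers. With the knockdown control as reference these medians were -0.48, -1.13, -0.34, 0.11 and -0.17, and 3 of 10 fat markers were lower (Cebpa, Pparg and Retn) and 2 of 18 stellate markers higher (Acta2 and Ngfr). The log2 of the summed linear level of the muscle markers was 5.85 with overexpression, 6.23 and 6.32 in the 2 negative controls and 2.44 in normal cells, and that of the leukocyte markers was 4.24, 4.25, 4.52 and 3.44, with Cd3e below background on all 5 arrays. Of the 14 leukocyte markers measured, 4 lay above 0 against the own control. The part of these transcripts in the other results was not tested.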

How the data were processed

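Agilent Feature Extraction made the signals, in version 11.0.1.1 per the file headers and in version 9.1 per the submitters' processing notes. The deposited scanner files hold processed signals as intensity, background-subtracted and not scaled between arrays, and the deposited table of the authors holds log2 values with equal medians of 6.69 in each column, whose normalization the sources used here do not state.

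Replicate spots not marked as poor were averaged on the linear scale, log2 was taken and the 75th percentile over all 30367 probes was subtracted from each array. Probes were named through RefSeq accessions (18005 of 30367), and a gene was read from its brightest usable probe. Where the dimmer side was below background, the lowest well-measured signal of its array took its place, so the fold is a bound. With 1 array per group no test was possible, and nothing tells culture from array. The calling was tested on simulated data.

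Members and 48 gene lists (1131 of 1248 symbols on the array) were chosen with earlier results of these data known. Named were Tmub1, called list members (up to 5 per direction, all for interferon), up to 15 per direction outside all 3 controls, up to 10 resting on the own control, up to 5 by bound or on replicated spots, and up to 8 with agreeing probes; a few others were chosen after their values were seen. Alternatives used R 4.3.3 with limma 3.58.1; figures used matplotlib. Some items are not reported here.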

Additional observations from a re-analysis of the deposited data

How the results depend on the processing

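The normexp setting took the median pixel signal, corrected its background at an offset of 50 and then applied quantile normalization. With it 40 genes were higher and 32 lower than in the own control. Between the 2 negative controls 361 differed, a setting chosen after seeing the data as were the other normalizations of that pair. All 72 genes called with normexp were among the 327. With no filter on dim probes 420 were higher and 329 lower, at 2-fold 454 and 275, at 4-fold 45 and 29, past 2.5-fold against both negative controls 41 and 16, and over probes in place of genes 440 and 235. With the knockdown control as reference 240 were lower. Quantile normalization called 286 genes (267 shared), cyclic loess 327 (301 shared), a percentile over probes above background on all arrays 343 (310 shared) and the authors' values 283 (263 shared). Of 98 named called genes 39 were called with normexp and 89 to 95 under these 4, and none changed direction. The median of the effectors was 0.59 with normexp and 0.27 by the knockdown control, of the oligoadenylate synthetases 0.77 with normexp, 1.63 in the authors' values and 0.093 by the knockdown control, and of the ISG15 system 1.33 and 0.31. By the knockdown control the ligands, receptors and kinases stood at 0.094, and the sign turned for MHC class I (-0.011), mitosis (0.076) and chemokines (0.042). The cause was not tested. No paired analysis was possible because each group has 1 sample. With 1 array a side no replicate could be left out, and normexp with an offset by its construction shrinks the differences of dim genes.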
